A study of Mus musculus with 8 samples.

Results

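The collagen and laminin genes were followed across the cells of lung adenocarcinomas in which a CRISPR activator was directed at Malat1 or at a control target. Members were all gene features whose symbol names a collagen chain (Col, number, a, number) or a laminin chain (Lama, Lamb or Lamc, number): 44 collagen and 11 laminin genes, 55 of the 32286 gene features in the deposited matrices. The rule used symbols and no measured value. Of the 55 genes, 54 had at least 1 UMI (unique molecular identifier, a tag that counts each captured RNA molecule once) in the cells analysed, and Col6a4 had 0.

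Collagens are trimers wound from chains of a repeated glycine motif. Fibrillar collagens (Col1a1, Col1a2, Col3a1 and the type V chains) form the tensile fibres of connective tissue, and Col4a1 and Col4a2 form the sheet-like network of basement membranes. Laminins are cross-shaped trimers of an alpha (Lama), a beta (Lamb) and a gamma (Lamc) chain that lie in the same membranes and bind integrins on the cells above them. In lung, fibroblasts are known as the main makers of fibrillar collagen, while epithelium and endothelium contribute basement membrane chains. Lama3 and Lamb3 are known as chains of epithelial laminin, and Lama5 as the alpha chain of the broad epithelial and endothelial laminins.

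The tumours came from mice labelled KPC, a genotype that the labels do not spell out (the series text writes KP), infected through the trachea with lentivirus carrying the CRISPR activation parts and dead guide RNAs (dRNAs, guides that recruit the activator without cutting). The dRNAs targeted Malat1 in the group labelled mA1 and Tomato in the group labelled Con, so both groups carried the activator from tumour initiation. The largest tumours were taken at 16 weeks, dissociated with collagenase IV and DNase, depleted of dead cells, tagged with hashtag antibodies to CD45 and MHC class I, and sequenced as 3′ libraries. There were 4 Con and 4 mA1 tumours, with 2 tumours in each of the 2 Con and 2 mA1 libraries. Nothing in the labels says that the tumours came from separate animals, so p-values measure only the spread between these samples, which may be technical. Collagenase digests matrix protein, and the counts given here are of RNA in the cells that were recovered.

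The libraries held 4939 to 10168 barcodes and 48319272 to 74996867 UMIs, and 3797 to 7406 cells per library were used. The targeted gene did not separate the groups: Malat1 stood at 40725 and 23582 CPM (counts per 1000000: the UMIs of a gene over all UMIs of the class in that library) in tumour-like epithelial cells of the Con libraries and at 25852 and 44893 CPM in those of the mA1 libraries. Every direction below therefore rests on the labels. Con library 2 stood apart in Xist, at 864 CPM in fibroblast-like cells against 0 in each of the other 3 libraries. Ddx3y, a Y-linked gene, stood at 0 CPM in it and at 65.9, 74.0 and 84.0 CPM in Con library 1, mA1 library 1 and mA1 library 2. By these genes Con library 2 held female cells and the others male cells, so it came from another animal. Sex was thus not balanced between the groups, and its part in the results was not tested. Pairs of libraries shared 87 to 263 cell barcodes. Of the tumour-like epithelial cells, 97 of 1005 carried a barcode also present in another library, against 1 of 112 fibroblast-like and 8 of 143 AT2-like cells. Epithelial results without these cells are given where a call changes.

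The promoter bases of the leading chains are shown because these chains differ most between cell classes or, for the pair, share a start region. RefSeq (build GRCm38.p6, the assembly that mm10 names) matched all 55 genes by symbol and gave promoter sequence for 40 of them. Col1a2 (chr6, 4505618 to 4541543) and Col3a1 (chr1, 45311538 to 45349706) are the fibrillar chains with the largest ratio of fibroblast-like to tumour-like epithelial levels. Their 250 bases before the annotated start, at chr6:4505368-4505617 and chr1:45311288-45311537, both on the + strand, are printed first. The capitals mark a CCAAT match 109 bases before the start of Col1a2 and a TATAAA match 117 bases before that of Col3a1. Col4a1 (chr8, 11198423 to 11312889) and Col4a2 (chr8, 11312805 to 11449287) lie head to head, with annotated starts 21 bases apart on opposite strands. The third line is the 78 bases that the windows of both genes share, chr8:11312777-11312854, on the + strand of Col4a2. Its capitals are the 22 bases from one start to the other, which lie within both genes.
Col1a2: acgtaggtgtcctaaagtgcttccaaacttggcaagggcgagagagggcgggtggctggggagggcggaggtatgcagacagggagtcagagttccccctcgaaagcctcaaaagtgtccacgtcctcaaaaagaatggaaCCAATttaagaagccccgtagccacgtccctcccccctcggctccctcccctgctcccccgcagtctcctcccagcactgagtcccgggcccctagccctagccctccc
Col3a1: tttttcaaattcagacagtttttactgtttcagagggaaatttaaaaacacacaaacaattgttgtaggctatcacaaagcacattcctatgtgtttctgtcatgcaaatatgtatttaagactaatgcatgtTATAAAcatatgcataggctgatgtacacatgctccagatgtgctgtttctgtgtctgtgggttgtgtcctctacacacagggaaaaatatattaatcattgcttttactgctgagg
Col4a2 and Col4a1: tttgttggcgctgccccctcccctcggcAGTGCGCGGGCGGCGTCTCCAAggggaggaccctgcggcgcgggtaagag
Over the 44 windows of 300 bases that members have, searched on both strands, GGGCGG (the GC box) was found in 26 (59.1%), against 35.7% of all 32851 windows. CCAAT was found in 14 (31.8%, against 37.4%), TATAAA in 5 (11.4%, against 13.6%) and TGANTCA (the AP-1 motif) in 1 (2.27%, against 7.81%). These matches are a description of letters, with no test.

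Cell classes were drawn from clusters that the 55 genes had no part in choosing, and the levels by class carry no test. Fibroblast-like cells numbered 112 (38, 29, 33 and 12 in Con libraries 1 and 2 and mA1 libraries 1 and 2, the order kept below). All 14 fibroblast markers and all 8 mural cell markers were detected among them, and Tagln and Acta2 were among the cluster's leading genes beside Mgp, Eln and Dcn, so the class mixes fibroblast-like and mural-like cells. The mural marker set scored slightly higher than the fibroblast set in it, so its name covers both. Ptprc, the CD45 gene, stood at 21.4, 21.7, 18.5 and 0 CPM in it. Tumour-like epithelial cells (Krt7, Krt8, Krt18, Cldn4) numbered 1005, AT2-like cells (alveolar type II, the surfactant-making cells) 143 and endothelial-like cells 35, of which Con library 2 held 2. The EGFP sequence was at 0 in the fibroblast-like cells. Because 3′ counting tags each molecule once, a CPM is not divided by transcript length.

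Collagen and laminin genes made up 1.48%, 2.00%, 1.64% and 1.29% of the UMIs of fibroblast-like cells in the 4 libraries. As a mean over cells the share was 1.47% in Con library 2, which was then not the highest, 1.52% in mA1 library 1 and 1.09% in mA1 library 2. In tumour-like epithelial cells the share was 0.0742%, 0.0842%, 0.0946% and 0.0766%, and in AT2-like cells 0.0867%, 0.0546%, 0.0791% and 0.0819%. Summed over libraries it was 0.539% in endothelial-like cells and 0.00984% in B cell-like cells. The balance of both families also differed: there were 26 collagen UMIs for each laminin UMI in fibroblast-like cells, 9.31 in endothelial-like cells, 1.01 in AT2-like cells and 0.667 in tumour-like epithelial cells. Laminin thus outnumbered collagen in the tumour-like epithelial cells of each library.

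**Figure D1:**
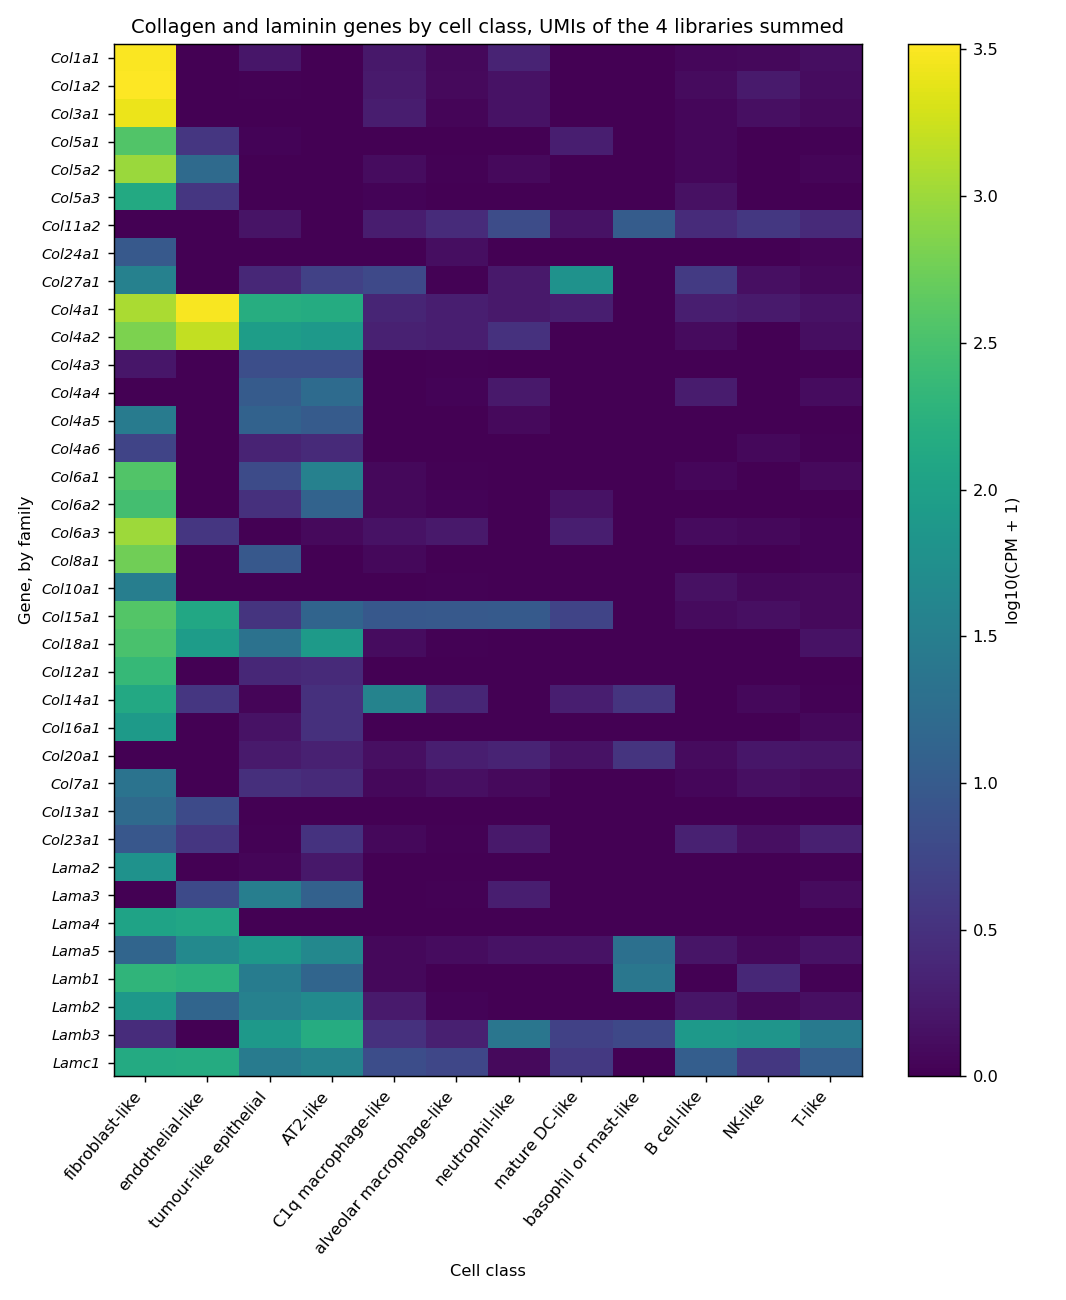
Level of 37 collagen and laminin genes (rows, by family) in 12 cell classes (columns), as log10(CPM + 1) of the UMIs summed over the 4 libraries. Fibrillar chains are bright in fibroblast-like cells, Col4a1 and Col4a2 in 4 classes (fibroblast-like, endothelial-like, tumour-like epithelial and AT2-like), and Lamb3 also in B cell-like and NK-like cells.

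In fibroblast-like cells the 3 leading genes were the chains of type I and type III collagen. Col1a2, the alpha-2 chain of type I collagen, stood at 2775 and 4439 CPM in Con and 3136 and 2671 CPM in mA1. Col1a1 (chr11, 94936224 to 94953042), its alpha-1 partner, stood at 2850, 3614, 2947 and 3181 CPM. Con library 2 was the highest of the 4 for both, and the other 3 libraries lay close together. Col3a1, the single chain of type III collagen, stood at 2218, 3886, 2067 and 1962 CPM, so both mA1 values lay below both Con values. Between groups of 2 libraries such separation, here and below, is common among genes that do not differ. The share of all tested genes that separate this way was not counted. There were 1.03, 0.814, 0.940 and 1.19 UMIs of Col1a1 for each UMI of Col1a2. Type I collagen protein holds more alpha-1 than alpha-2 chain, whereas the UMI ratio stayed near 1.

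The type V chains, which are built into type I fibrils and limit their width, followed at lower levels. Col5a2 stood at 893, 994, 1145 and 720 CPM and Col5a1 at 372, 433, 329 and 312 CPM. Of the beaded filament collagen VI, Col6a3 stood at 888, 1295, 954 and 720 CPM, with Col6a1 at 399, 390, 348 and 264 CPM and Col6a2 at 272, 299, 323 and 252 CPM. Col6a3 was above the other chains in each library, although the trimer takes 1 chain of each. Col8a1, a short network collagen of vessel walls and remodelling tissue, stood at 573, 417, 724 and 504 CPM. Col12a1, which decorates fibrils, stood at 185, 234, 273 and 222 CPM. In these 7 genes the Con and mA1 ranges overlapped, except Col6a1 and Col5a1, where both mA1 values were the lower ones.

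Basement membrane chains were also high in fibroblast-like cells. Col4a1 stood at 1114 and 1067 CPM in Con and 1522 and 552 CPM in mA1, and Col4a2 at 716, 539, 825 and 390 CPM. For both genes mA1 library 1 was the highest and mA1 library 2, with 12 cells, the lowest. Col15a1, a multiplexin next to basement membranes, followed the same library at the low end with 301, 542, 422 and 138 CPM. Col18a1, the precursor of endostatin, stood at 322, 433, 226 and 288 CPM, lower in both mA1 libraries. The laminin chains of these cells were Lamb1 (198, 190, 222 and 162 CPM), Lamc1 (119, 188, 146 and 90.0 CPM), Lama4 (89.0, 164, 111 and 42.0 CPM), Lamb2 (44.5, 120, 69.9 and 60.0 CPM) and Lama2 (62.3, 74.6, 61.7 and 24 CPM). Lama2 and Lama4 are the alpha chains of mesenchymal and vascular laminins. Lama3 had 0 UMIs in fibroblast-like cells and Lamb3 3.

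**Figure D2:**
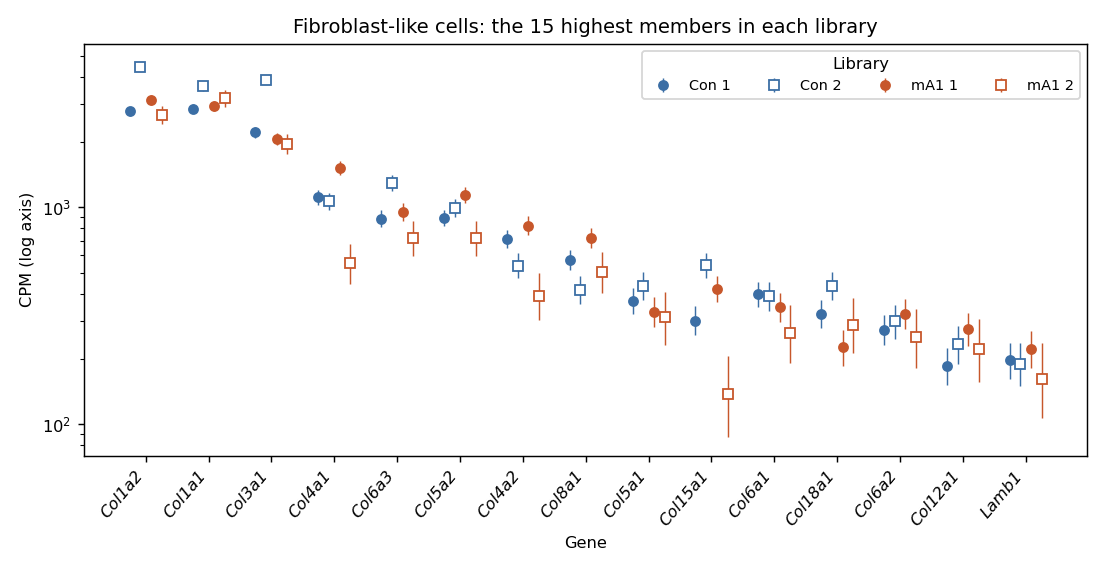
CPM (log axis) of the 15 highest members in fibroblast-like cells of each library, with exact Poisson intervals of the UMI count (95%, counting error only). Con library 2 leads for Col1a2, Col1a1 and Col3a1, and mA1 library 2 (12 cells) is lowest for Col4a1 at 552 CPM and Col15a1 at 138 CPM.

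The fibroblast-like cells fell into 3 states that differed in the levels of single collagen chains. Sub-clustering also left the 55 genes out, and these levels are again a description. State 1 (48 cells, led by Ibsp, Mmp3 and Clec3b, with the fibroblast genes Ogn, Lum and Inmt also among its leading genes) held 3267 CPM of Col3a1 and 2826 CPM of Col1a1. State 2 (44 cells, led by Cthrc1, Spp1 and Dmp1) held 3768 CPM of Col1a1 and 4003 CPM of Col1a2, each above its 2440 CPM of Col3a1. State 3 (20 cells, led by Higd1b and Rgs5, pericyte genes, with S100a8 and S100a9, neutrophil genes, also among its leading genes) held the most basement membrane collagen, with 2485 CPM of Col4a1, 1419 CPM of Col4a2 and 1001 CPM of Col18a1.

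Less abundant members also differed between the states. Col13a1, a transmembrane collagen, stood at 41.8 CPM in state 1, and by library at 24.5, 65.6, 12.8 and 84.6 CPM. Lama2 stood at 98.1 CPM there. Col8a1 stood at 880 CPM in state 2 (870, 646, 1119 and 764 CPM by library) against 267 CPM in state 1, and Col15a1 at 586 against 107 CPM. Col8a1 was above state 1 in each library. Col7a1, the anchoring fibril collagen, stood at 40.5 CPM in state 2. Col10a1 (chr10, 34389981 to 34397085), known from hypertrophic cartilage and from matrix-producing tumour fibroblasts, had 47 of its 51 UMIs in state 2, of which mA1 library 1 held 32, Con library 1 14, mA1 library 2 1 and Con library 2 0. State 3 had 12, 3, 5 and 0 cells, so it is absent from mA1 library 2. Over the whole class Col4a1 was lowest in that library, and the part of state 3 in this was not tested.

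**Figure D3:**
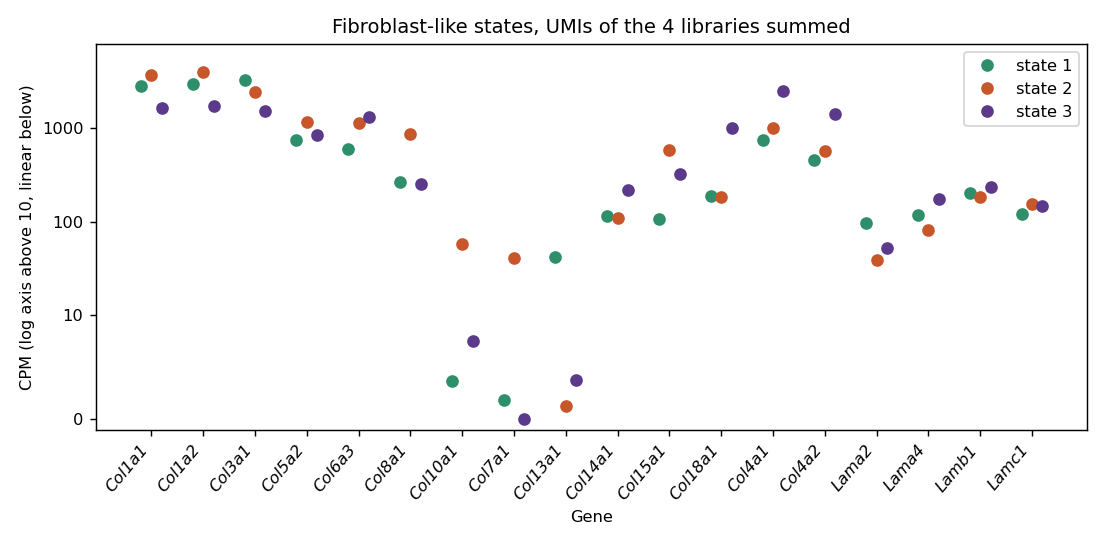
CPM of 18 members in the 3 states of fibroblast-like cells, UMIs of the 4 libraries summed (log axis above 10, linear below). State 2 stands above the others for Col8a1, Col10a1 and Col7a1, state 3 for Col4a1, Col4a2 and Col18a1, and state 1 for Col13a1 and Lama2.

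Tumour-like epithelial cells used another set of chains. Lamb3 (chr1, 193294353 to 193343878), a beta chain of epithelial laminin, stood at 82.2 and 57.3 CPM in Con and 99.1 and 80.9 CPM in mA1, with overlapping groups. Lama3 (chr18, 12333417 to 12583013), an alpha chain of epithelial laminin, stood at 27.1 and 22.3 CPM in Con and 55 and 33.8 CPM in mA1, with both mA1 values above both Con values. Lamb3 was above Lama3 in each library. Lama5 stood at 79.4, 65.3, 73.3 and 75.6 CPM, again with overlapping groups. Lamb2 (33.0, 39.6, 33.0 and 27.5 CPM), Lamc1 (30.9, 28.5, 26.7 and 21.7 CPM) and Lamb1 (23.8, 42.3, 22.8 and 23.6 CPM) were lower, and the mA1 values of Lamc1 lay below both Con values.

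The collagens of these cells were basement membrane chains. Col4a1 stood at 135, 191, 178 and 137 CPM and Col4a2 at 79.4, 99.99, 109 and 82.4 CPM, with overlapping groups. Col18a1 followed at 17.6, 25.8, 20.5 and 15.5 CPM and Col4a5 at 13, 11.6, 11.6 and 8.27 CPM. Col4a3 and Col4a4, neighbours on chromosome 1 (82586921 to 82722059 and 82448419 to 82587034) whose chains join Col4a5 in the mature network of alveoli and kidney, stood at 5.88, 3.35, 9.42 and 7.53 CPM and at 9.56, 5.93, 13.2 and 10.9 CPM. For both, the mA1 values lay above the Con values. There were 1.63, 1.77, 1.40 and 1.45 UMIs of Col4a4 for each UMI of Col4a3.

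Fibrillar chains were close to absent from them. Col1a1 had 24 UMIs in all tumour-like epithelial cells, Col1a2 2, Col3a1 1, Col5a2 1 and Col6a3 1. Summed over libraries, Col1a2 was 63551 times higher in fibroblast-like cells (exact 95% interval 17584 to 524892), and Col3a1 99164 times higher (17788 to 3917691). The intervals cover counting error only, since UMIs of 1 cell are not independent of one another. With 1 UMI each on the epithelial side, Col6a3 was 38346 times higher (6873 to 1515493) and Col5a2 37660 times (6749 to 1488398), and Col1a1 was 4992 times higher (3351 to 7799). In the other direction, Lamb3 was 42.3 times higher in tumour-like epithelial cells (14.4 to 205). Lama3 was at least 16.9 times higher and Col4a4 at least 5.09 times, taking 3 UMIs over the class where fibroblast-like cells had 0. Col4a3 was 9.81 times higher (1.74 to 389) and Lama5 5.74 times (3.75 to 9.29).

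The chains that both classes used differed less. Col4a1 was 7.43 times higher in fibroblast-like cells (7.06 to 7.83) and Col4a2 7.44 times (6.95 to 7.97). The start regions of this pair overlap, as printed above. There were 1.56, 1.98, 1.85 and 1.42 UMIs of Col4a1 per UMI of Col4a2 in fibroblast-like cells, 1.69, 1.91, 1.64 and 1.66 in tumour-like epithelial cells and 1.72, 1.97, 1.54 and 2.55 in AT2-like cells. The ranges of these 3 classes over libraries overlap. Over all immune cells, at 179 and 157 UMIs, the ratio was 1.14.

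**Figure D4:**
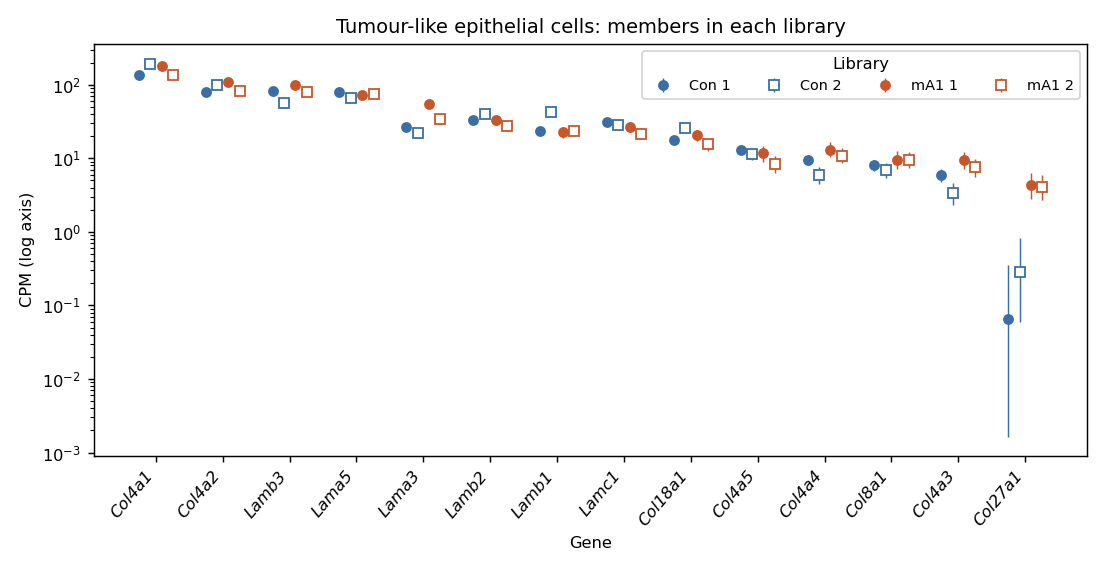
CPM (log axis) of 14 members in tumour-like epithelial cells of each library, with exact Poisson intervals of the UMI count (95%, counting error only). Col4a1 lies between 135 and 191 CPM, and Col27a1 lies at 0.0646 and 0.287 CPM in Con and 4.28 and 4.13 CPM in mA1.

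States of the tumour-like epithelial cells were unevenly spread over the libraries, and members differed between the states. The part of the states in the library levels was not tested. State 2 (258 cells, 184, 10, 37 and 27 by library, led by Hopx and Ager, alveolar type I markers) held the highest levels of Col4a3 (20.8 CPM) and Col4a4 (29.7 CPM). The AT2-like state 5 (75 cells, led by Lamp3) held 9.79 CPM of Col4a3 and 19.2 CPM of Col4a4, and the other 6 states held at most 3.48 and 4.4 CPM. Within state 2, Col4a3 stood at 15.3 and 12.6 CPM in Con and 28.8 and 35.6 CPM in mA1, so the groups did not overlap there either. State 1 (284 cells, 97, 34, 71 and 82 by library, led by Cxcl3 and Cxcl1) held 49.2 CPM of Lama3. Within it Lama3 stood at 51.0, 51.7, 66.3 and 36.0 CPM, so the groups overlapped, whereas in state 2 it stood at 27.2, 10.1, 59.0 and 35.6 CPM.

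Other members peaked in smaller states. Col18a1 stood at 78.0 CPM in state 7 (33 cells, led by Tff2 and Gkn1, gastric genes) against 10.1 to 20.8 CPM in the other 7. Lamb1 stood at 65.7 CPM in state 4 (91 cells, 86 of them in Con library 2), which is also the library with the highest Lamb1 level. Col6a1 stood at 25.2 CPM in state 5. Lama3 was lowest in state 6 (67 cells, 63 of them in Con library 1, led by Chac1), at 6.97 CPM. Col27a1 was found mostly in states 1 and 7, at 3.51 and 5.63 CPM, and within state 1 it stood at 0.40, 0, 7.45 and 4.38 CPM.

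AT2-like cells resembled the tumour-like epithelial cells in the chains they used but not in their balance. Col4a1 stood at 123, 141, 158 and 203 CPM, and Lamb3 at 177, 56.9, 128 and 125 CPM. Summed over libraries there were 13.1 UMIs of Lamb3 per UMI of Lama3, against 2.50 in tumour-like epithelial cells. Col4a2 (71.6, 71.7, 102 and 79.5 CPM), Lamb2 (44.3, 47.0, 28.8 and 65.3 CPM), Lama5 (42.0, 19.8, 46.7 and 53.4 CPM), Lamc1 (40.8, 17.3, 34.2 and 32.7 CPM) and Col4a4 (16.2, 14.8, 19.8 and 14.2 CPM) followed. Col18a1 varied most between libraries, at 105 and 17.3 CPM in Con and 104 and 28.3 CPM in mA1, and Col6a1 stood at 33.6, 61.8, 32.4 and 25.1 CPM. Con library 2 and both mA1 libraries held 17 to 21 AT2-like cells, so these values have wide counting error.

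Endothelial-like cells had the highest Col4a1 of the named classes. It stood at 2900, 3190, 3584 and 2557 CPM, and Col4a2 at 1557, 911, 1633 and 1515 CPM, where the second value of each comes from 2 cells. Summed over libraries, Lamb1 stood at 173 CPM, Lamc1 at 145 CPM, Col15a1 at 129 CPM and Lama4, the endothelial alpha chain, at 122 CPM. Fibrillar Col1a1, Col1a2 and Col3a1 had 0 UMIs among them, which allows up to 7.76 CPM (3 UMIs of the class).

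Most members were near 0 in immune cells. Summed over all immune classes, Col1a1 stood at 0.26 CPM, Col1a2 at 0.25 CPM and Col3a1 at 0.19 CPM, all genes that leukocytes should lack. Lamb3 was far above that. It stood at 81.2, 67.7, 89.8 and 60.2 CPM in B cell-like cells, 68.6, 76.3, 49.7 and 54.3 CPM in NK-like cells, 23.4, 31.3, 24.3 and 26 CPM in T-like cells and 22.1, 22.2, 22.1 and 28.8 CPM in neutrophil-like cells. The level in B cell-like cells reached that of tumour-like epithelial cells, without Lama3, which had 0 UMIs in B cell-like and NK-like cells, against 539 and 323 UMIs of Lamb3. In tumour-like epithelial cells there were 2.50 UMIs of Lamb3 per UMI of Lama3. Lamb3 overlaps the long noncoding gene Gm51741 (chr1, 193340891 to 193343426) in RefSeq, which has no row of its own in the feature table, and the strand setting of the counting is not given in the sources used here, so reads of that gene cannot be told apart from those of Lamb3.

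**Figure D5:**
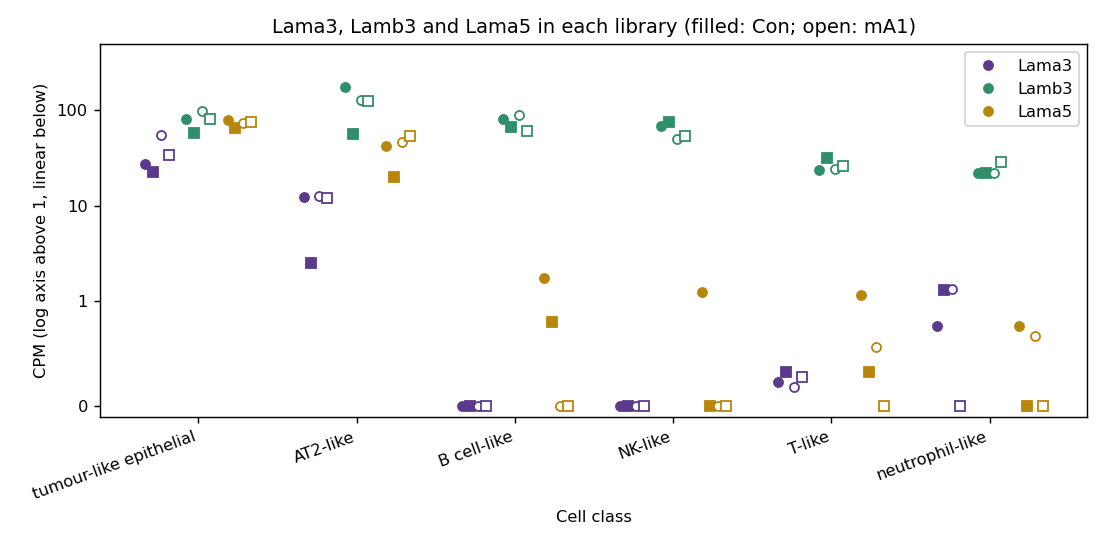
CPM of Lama3, Lamb3 and Lama5 in 6 cell classes of each library (log axis above 1, linear below; filled circle and square for Con libraries 1 and 2, open for mA1 libraries 1 and 2). All 3 chains are present in tumour-like epithelial and AT2-like cells, and Lamb3 stands without Lama3 in B cell-like and NK-like cells.

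Over all immune cells, a few other members also stood above the rest. Col14a1, Col15a1 and Lamc1 were higher in fibroblast-like cells summed over libraries, at 130, 382 and 142 CPM. Col14a1, which binds collagen fibrils, stood at 35.7, 38.9, 38.9 and 34.3 CPM in C1q macrophage-like cells. Col27a1 (chr4, 63214009 to 63334991), a fibrillar collagen known from cartilage, stood at 48.0, 68.1, 62.9 and 66.4 CPM in mature DC-like cells (dendritic cells with Ccr7 and Fscn1). It stood at 33.7 CPM in fibroblast-like cells summed over libraries, which were the lower class except in mA1 library 2. Col15a1 stood at 10.4 CPM in cycling macrophage cluster 10, 8.80 CPM in neutrophil-like cells, 8.46 CPM in alveolar macrophage-like cells and 8.25 CPM in C1q macrophage-like cells. It overlaps the gene Gm12426, which the feature table also lists, and Gm32317, Gm52733, Gm52734 and Gm52732, which it does not list. Lamc1 stood at 10.5 CPM in T-like and 10.2 CPM in B cell-like cells, and Col11a2 at 5.62 CPM in neutrophil-like cells. Col14a1 (Gm52209, Gm18787), Col27a1 (Mir455, Gm52743) and Lamc1 (Gm8818) also overlap genes without a row in the feature table. As for Lamb3, reads of such unlisted genes cannot be told apart from those of the member.

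For Malat1-directed against control tumours, UMIs were summed per library in non-immune classes and tested with edgeR's quasi-likelihood test over all genes, with Benjamini-Hochberg adjustment and a threshold of 0.05. In fibroblast-like cells no member passed. Of 55 members 26 passed the filter on low counts, 9 with a higher and 17 with a lower mA1 level, and their median log2 fold change (mA1 over Con) was -0.27, against -0.0017 over all 6134 genes tested. Of those genes 0 were called, which is 0%, and 239 had an unadjusted p under 0.05. DESeq2 called 2 genes (0.0138%), neither of them a member. The share of UMIs taken by all members was 1.74% ± 0.368 in Con and 1.47% ± 0.245 in mA1 (SD, n = 2 each), a difference of -0.277 percentage points that lies within the spread of the libraries. With means over cells the difference was -0.173 percentage points. Sums over a whole class do not separate fewer cells of a state from less RNA per cell. Without state 3 the share was 1.56% and 2.01% in Con and 1.67% and 1.29% in mA1. The part of the states in the difference was not tested.

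Among the fibrillar chains, Col3a1 had a log2 fold change of -0.56 ± 0.25 (SE), Col1a2 -0.28 ± 0.22 and Col1a1 -0.04 ± 0.16. The adjusted p of edgeR was 1.00 after rounding for each member of this class. The largest negative values belonged to Col4a5 at -1.18 ± 0.51 (35.6, 38.5, 12.3 and 24 CPM), Col14a1 at -0.92 ± 0.79 (78.3, 255, 117 and 30.0 CPM) and Col16a1 at -0.57 ± 0.33 (80.1, 113, 61.7 and 66.0 CPM). Col4a5 was the single member with an unadjusted p under 0.05, at 0.0426. Its groups did not overlap, nor did those of Col16a1, and the share of all tested genes without overlap was not counted. The largest positive values belonged to Col10a1 at 1.73 ± 1.02 (24.9, 2.41, 72.0 and 6.0 CPM), Col7a1 at 0.41 ± 0.73 (7.12, 33.7, 22.6 and 30.0 CPM) and Col27a1 at 0.38 ± 0.54 (30.3, 33.7, 24.7 and 72.0 CPM), all with overlapping groups.

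Calls in this class depended on the libraries included. Each fit without 1 library leaves that group with a single library, which is then assumed to vary like the 2 of the other group. Without mA1 library 1, Col15a1 (log2 fold change -1.54, adjusted p = 0.00446) and Col4a1 (-0.92, adjusted p = 0.0428) were called lower in mA1 by edgeR, among 90 genes (1.36% of those tested). This fit compares the 12 cells of mA1 library 2 with Con. That library had no cell of state 3, and the part of this in the calls was not tested. Without mA1 library 2, Col10a1 was called higher (2.27, adjusted p = 0.00826), among 39 genes (0.542%). The markers of other cells also moved between these libraries. The summed level of the 8 neutrophil markers, all detected, was 149 to 546 CPM in Con and 47.3 to 120 CPM in mA1, that of the 5 cycling markers 197 to 222 CPM in Con and 6.0 to 14.4 CPM in mA1, and that of the 8 mural markers 2523 to 3891 CPM in Con and 2503 to 3078 CPM in mA1. Their part in the result was not tested. On data simulated from these libraries with the same fit, 11.2% of 2-fold and 69.4% of 4-fold changes were recovered. The fit also called 5 of 5547 unchanged genes, beside 10 of 89 and 68 of 98 changed ones.

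In tumour-like epithelial cells 21 members were tested and none passed, against 6 of 12249 genes (0.049%), 4 higher and 2 lower in mA1. The members' median log2 fold change was 0.08, against 0.0074 over all genes tested, with 13 positive and 8 negative values. The largest belonged to Col27a1, with 1 and 3 UMIs in Con and 25 and 28 in mA1, which is 0.0646 and 0.287 CPM against 4.28 and 4.13 CPM. Its log2 fold change was 4.60 ± 0.71, with an unadjusted p of 0.00026 and an adjusted p of 0.17. DESeq2 called it at an adjusted p of 0.00628, as 1 of 63 genes (0.325%), and edgeR without the filter on low counts called it at 1.61e-06, as 1 of 312 genes (1.61%). Over all alternatives its adjusted p ran from 1.61e-06 to 0.717. State 1, which held most of its UMIs, made up 97 of 532 and 34 of 177 cells in Con and 71 of 156 and 82 of 140 cells in mA1, and its part in the result was not tested. Within state 1 the mA1 libraries were also the higher ones, and no test was run there. Mature DC-like cells, the class with the most Col27a1 of the immune classes described here, have markers that summed to 24 and 15.8 CPM in Con and 25.9 and 30.3 CPM in mA1 within tumour-like epithelial cells, with 4 of 5 detected and Apol7c at 0, and their part in the result was not tested.

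Lama3 had a log2 fold change of 0.82 ± 0.23, with an unadjusted p of 0.0080 and an adjusted p of 0.527 by edgeR. It was also called without the low-count filter, at an adjusted p of 0.00947. Col4a3 had 0.85 ± 0.35, with an unadjusted p of 0.0433 and an adjusted p of 0.708. The largest negative values belonged to Lamb1 at -0.52 ± 0.30, Col7a1 at -0.38 ± 0.62 and Col4a5 at -0.33 ± 0.24. Of the more abundant chains, Lamb3 had 0.35 ± 0.20, Col4a1 -0.07 ± 0.22 and Col4a2 0.07 ± 0.20. Fibroblast markers in these cells summed to 193 to 250 CPM in Con and 221 to 248 CPM in mA1, with Dpt, Mfap4, Fbln1, Tcf21 and Inmt at 0. Simulated 2-fold changes were recovered in 28.6% and 4-fold changes in 76.8% of genes. The fit also called 19 of 11829 unchanged genes, beside 28 of 98 and 76 of 99 changed ones.

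In AT2-like cells 11 members were tested and none passed. Of 7055 genes 0 were called (0%), with 315 at an unadjusted p under 0.05, and DESeq2 called 2 (0.013%), none of them a member. The members' median log2 fold change was 0.09, with 8 positive and 3 negative values, against -0.0025 over all genes tested. The largest positive values belonged to Lama5 at 0.58 ± 0.40, Col4a1 at 0.47 ± 0.30 and Col4a2 at 0.35 ± 0.32, of those reported here. The largest negative values belonged to Col6a1 at -0.64 ± 0.42, Col15a1 at -0.28 ± 1.03 and Col18a1 at -0.07 ± 1.04. Simulated 2-fold changes were recovered in 8.42% and 4-fold changes in 56.7% of genes in this class. The fit also called 15 of 6580 unchanged genes, beside 8 of 95 and 55 of 97 changed ones.

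In 9 immune classes, where 77.0% to 99.1% of cells carried exactly 1 hashtag and each tumour held at least 20 cells, UMIs were summed per tumour, 4 Con against 4 mA1. Tumours of the same library entered these fits as separate samples. The p-values in these classes thus do not allow for what such tumours share, and may be too small. Members gave 12 tests over these classes and none passed. The share of all genes called was 0.0154% in B cell-like, 0% in C1q macrophage-like, 0.273% in NK-like, 0.0211% in T-like, 0.0372% in alveolar macrophage-like, 0% in cDC2-like (conventional dendritic) and 0% in neutrophil-like cells, 0.0109% in cycling macrophage cluster 10 and 0.0232% in macrophage cluster 7. Lamb3 in NK-like cells stood at 62.1, 72.4 and 82.1 CPM (lowest, median and highest tumour) in Con and at 40.5, 53.4 and 60.7 CPM in mA1. The groups did not overlap, and the log2 fold change was -0.49 ± 0.20, with an unadjusted p of 0.0174 and an adjusted p of 0.410 by edgeR. Lamb3 in B cell-like cells had 0.20 ± 0.17, and the groups overlapped. The difference between these classes was not tested.

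Col15a1 in cycling macrophage cluster 10 stood at 5.27, 7.06 and 11 CPM in Con and 7.95, 13.6 and 14.7 CPM in mA1. Its log2 fold change was 0.74 ± 0.26, with an unadjusted p of 0.0116 and an adjusted p of 0.626 by edgeR, and the groups overlapped. Col14a1 in C1q macrophage-like cells stood at 15.1, 30.7 and 40.3 CPM in Con and 11.2, 16.6 and 35.3 CPM in mA1, with -0.32 ± 0.35. The library values given above also count cells without a hashtag.

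Genes that make, bind or accompany collagens and laminins were read from lists drawn up with earlier results of these data known. In fibroblast-like cells none of them passed: 0 of 22 tested genes of collagen synthesis and processing (median log2 fold change -0.08), 0 of 6 receptors (-0.03), 0 of 7 basement membrane partners (0.10) and 0 of 14 other matrix genes (-0.15). The largest values were Pcolce2, an enhancer of procollagen cleavage, at -1.26 ± 0.98 (62.3, 332, 61.7 and 108 CPM), Agrn, a basement membrane proteoglycan, at -1.18 ± 0.68 and Fbln1, a fibulin, at -1.03 ± 0.67 (74.8, 214, 45.2 and 108 CPM). In the other direction stood Dcn, the fibril-binding proteoglycan decorin, at 0.60 ± 0.20 (1333 and 1283 against 1604 and 2262 CPM), Pxdn, which crosslinks type IV collagen, at 0.47 ± 0.27 and Mfap5, a microfibril protein, at 0.36 ± 0.18. In fits that leave 1 group with a single library, assumed to vary like the other group, 3 of these genes were called. Without mA1 library 1, Dcn was called (0.85, adjusted p = 0.0150). Without mA1 library 2, Fbln1 was called (-1.62, adjusted p = 0.0308), and without Con library 1, Pcolce2 (-2.01, adjusted p = 0.00797).

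In tumour-like epithelial cells 1 of these genes passed. Fbln2, a fibulin of basement membranes and elastic fibres, stood at 4.26 and 4.68 CPM in Con and 32.2 and 19.9 CPM in mA1. It rose by 2.52 ± 0.27 on the log2 scale, with an adjusted p of 0.0483 by edgeR. It missed the threshold without mA1 library 1 (adjusted p = 0.385) and without mA1 library 2 (0.456), fits with a single mA1 library, and without barcodes found in another library (2.22, adjusted p = 0.225). Itga1, the alpha subunit of a collagen receptor, stood at 33.8 and 50.6 against 10.6 and 12 CPM, with -1.91 ± 0.26 and an adjusted p of 0.141. It was called by DESeq2 (adjusted p = 3.39e-05), with the replicate block (0.0164), without Con library 1 (0.00696), without cells that hold a Ptprc UMI (0.0457) and without the low-count filter (6.13e-14).

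Tnc, tenascin C, stood at 11.6 and 14.3 against 4.62 and 3.69 CPM, with -1.65 ± 0.28 and an adjusted p of 0.190. Bgn, biglycan, had -1.02 ± 0.59, Tnxb, tenascin X, 1.98 ± 0.86 and Pxdn 1.46 ± 0.43. Without the low-count filter Tnc (adjusted p = 0.000143), Pxdn (0.0446) and Tnxb (0.0429) were called. The medians were 0.03 over 16 tested genes of synthesis and processing, 0.04 over 10 receptors, 0.10 over 6 basement membrane partners and 0.73 over 6 other matrix genes, against 0.0074 over all genes tested.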

How the data were processed

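The deposited matrices hold raw UMI counts per gene and cell barcode, made by the authors with Cell Ranger 6.0.1 on mm10, per the submitters' processing notes. Whole-number values were checked on each file. Barcodes with at least 500 UMIs, 250 genes and at most 15% mitochondrial UMIs were kept. Cells with both hashtags and those called by Scrublet (77, 0, 171 and 31) were left out; Scrublet called 0 of 5808 cells in Con library 2 and was taken not to have worked there. Scrublet was run through scanpy 1.11.5. Counts were log-normalized, and clusters were made with scikit-learn 1.9.0 and leidenalg 0.10.2. Settings were 2000 variable genes without the 55 members, 30 components, 15 neighbours and Leiden resolution 1 (0.5 within a class). The variable genes also left out mitochondrial, ribosomal protein and Y-linked genes, Xist, Malat1 and EGFP. There were 31 clusters, named from fixed markers. Clusters 15, 17 and 18 (1247 cells) stayed unnamed. The submitters may have named cells differently.

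UMIs were summed per class and library (at least 10 cells) or per tumour, which is 1 hashtag of 1 library (at least 20 cells), and tested with edgeR 4.0.16 in R 4.3.3 (TMM, filterByExpr, robust quasi-likelihood, two-sided, Benjamini-Hochberg over all genes of a class). DESeq2 1.42.0 was an alternative. The fits were tested on simulated counts. Hashtags mark 11.6% of fibroblast-like and 18.4% of tumour-like epithelial cells, so libraries are the replicates there. Same-numbered libraries did not deviate together (correlations 0.05, -0.18 and -0.10), so replicate numbers were not taken to pair them. The members and lists were chosen with earlier results of these data known. Genes named are those called, the 10 highest per class, and the 3 largest fold changes in each direction, with 1 member not reported here. The smallest states, and the other members described in immune classes, were named after their values were seen.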

Additional observations from a re-analysis of the deposited data

Results flagged for a closer look

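Clusters 15, 17 and 18, which were left unnamed and enter no comparison (cluster 17 is led by the haemoglobin genes of red blood cells), hold 1247 cells with a median of 657 UMIs, and 54.3% of their barcodes occur in another library as well. Of 8 members with at least 20 UMIs in these cells, 3 had both mA1 libraries above both Con libraries. The share of all genes with this order was not counted, and the opposite order was not looked for. Col9a3, a chain of the cartilage collagen IX, stood at 1.74 and 37.3 CPM in Con and 89.4 and 190 CPM in mA1 (mean 139), from 1, 10, 54 and 60 UMIs. It had 0 UMIs in fibroblast-like cells. Col8a1 stood at 5.21 and 29.9 CPM in Con and 56.3 and 94.8 CPM in mA1 (mean 75.5), from 3, 8, 34 and 30 UMIs. Col4a2 stood at 10.4 and 14.9 CPM in Con and at a mean of 16.2 CPM in mA1, with counting intervals that overlap. Cluster 15, led by Ttr and Enpp2, held 41 and 45 cells in Con and 225 and 187 in mA1. The part of these cells and shared barcodes in the values was not tested. None of the 24 groups of 4 tumours with a tested member had a tumour far from the rest by Dixon's ratio.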

How the results depend on the processing

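Of 52 counts of members called under alternatives 47 were 0. The 5 others were 2 and 1 in fibroblast-like cells without 1 library (range 0 to 2) and, in tumour-like epithelial cells, 2 without the low-count filter, 1 by DESeq2 and 1 with a crossed replicate block. The crossed pairing was added after seeing the data because same-numbered epithelial libraries correlated at -0.18, and it called 46 genes, Col27a1 among them. With the replicate block 0 members were called in fibroblast-like, tumour-like epithelial, AT2-like and immune cells, while genes called went from 6 to 18 in tumour-like epithelial and from 26 to 58 over immune classes. The difference in the members' share of fibroblast-like UMIs (mA1 minus Con) was -0.277 percentage points, -0.173 as a mean over cells, and -0.537 to -0.0165 without 1 library. A group left with 1 library is assumed to vary like the other.

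Of 460 values of 36 named log2 fold changes 421 kept their direction and call, 17 passed the threshold, 3 no longer did and 19 reversed, 11 of these without 1 library or tumour. The cause was not tested. Leaving out 1 library at a time in fibroblast-like cells, Col1a1 ran from -0.17 to 0.13 and was 0.04 without mA1 library 1, Col1a2 ran from -0.55 to 0.092, Col14a1 from -2.38 to 0.13 and Pcolce2 from -2.01 to 0.37, each highest without Con library 2. Col10a1 ran from -1.17 (without mA1 library 1) to 4.18, Col27a1 from -0.34 (without mA1 library 2) to 1.23 and Col7a1 from -0.37 (without Con library 1) to 1.81. In tumour-like epithelial cells Col7a1 ran from -1.49 to 0.25 (without mA1 library 2). In AT2-like cells Col18a1 ran from -1.22 to 1.89 (without Con library 1), with 0.64 without mA1 library 2. Col18a1 there was 0.095 by DESeq2, 0.26 with the replicate block, 0.15 without cells with a Ptprc UMI and 0.14 without shared barcodes, and Col15a1 was 0.16 by DESeq2 and 0.41 with the block. Col14a1 in C1q macrophage-like cells was 0.0031 over libraries and 0.011 with hashtags called at 80%. Some classes held few cells: mA1 library 2 holds 12 fibroblast-like cells and 166633 UMIs. Simulated 2-fold changes were recovered in 11.2% of genes in fibroblast-like, 8.42% in AT2-like and 28.6% in tumour-like epithelial cells. The part of depth in this recovery was not tested.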
